A study of Homo sapiens with 66 samples.

Results

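The comparison described here is between a KBM7 line whose MED26 carries a degradation tag and wild-type KBM7 cells, both without degrader, so that any difference was there before the tagged protein was targeted. It was made from 6 of the 66 libraries of the series: the 3 labelled MED26_DMSO (A, B and C) and the 3 labelled WT_DMSO (A, B and C), chosen by their labels alone. KBM7 is a near-haploid human cell line from chronic myeloid leukemia. The MED26 line has the genotype MED26-dTAG and the other line is wild type. Cells of both lines were seeded in triplicate wells of 24-well plates, and held for 6 h in DMSO, the solvent of the compounds used elsewhere in the series. RNA was read from the 3′ ends of polyadenylated transcripts (QuantSeq) as single reads of 50 bp, after equal amounts of ERCC and SIRV spike-in RNA were added to each lysate. Nothing in the labels gives separate cultures or clones behind the 3 wells, so p-values measure the spread between wells, which may be technical. The labels name 1 MED26-tagged line and do not say whether it grew from 1 clone, and the effect of the tag cannot be told apart from any difference that the line acquired while it was made.

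Mediator is a large protein complex that carries signals from DNA-bound transcription factors to RNA polymerase II. MED26 is a subunit found in only a part of Mediator complexes. Its N-terminal domain resembles that of the elongation factor TFIIS and binds either the general factor TFIID or the super elongation complex, which contains the kinase P-TEFb. In the dTAG system the gene's own protein is fused to a mutant FKBP12 domain, which a small molecule such as dTAG7 can bring to a ubiquitin ligase. In blood cells Mediator works with lineage transcription factors at the enhancers of cell identity genes.

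The 6 libraries held 2502436 to 3570607 endogenous counts and 18031 to 28296 spike-in counts, and 12515 genes passed the filter on low counts. Levels are given as CPM, counts scaled to library size on a scale set by the spike-ins, and differences as log2 of the MED26 line over wild type ± SE, with 3 libraries a side. Library A of the MED26 line stood apart from its replicates. The chi-square per degree of freedom between the counts of 2 replicates was 4.68 (A and B) and 4.51 (A and C), against 1.55 for B and C and 2.37 to 2.97 between the wild-type libraries. Counts over genes are therefore also given without it. Endogenous RNA per spike-in did not separate the lines. The log2 ratio of endogenous to spike-in counts was 6.94, 7.0 and 6.98 in the MED26 line and 6.98, 7.12 and 6.91 in wild type. The mean difference was -0.027, or 98.2% of wild type, less than the SD of the wild-type libraries of 0.11 (exact two-sided permutation p = 0.8, n = 3 per group, where the smallest possible p is 0.1).

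Over all genes the profiles were close, and a small set stood far apart. The median difference was -0.023 (0.001 with TMM scaling, which sets the typical gene to no change). With edgeR's quasi-likelihood test and Benjamini-Hochberg adjusted p under 0.05, 115 genes were called, 0.919% of those tested. Of these, 66 were higher in the MED26 line (0.527%) and 49 were lower (0.392%). Among the higher genes the median difference was 1.34 and 47 were at least 2-fold apart, against a median of -0.933 and 22 such genes among the lower ones. All 115 called genes had no overlap between the 3 libraries of one line and the 3 of the other, which 14.3% of all tested genes also showed. The call was the same, in the same direction, for 112 of the 115 with TMM scaling, under which 158 genes were called in all, 105 higher (0.809%) and 53 lower (0.409%), 1.22% together. Without library A of the MED26 line 74 genes were called, 53 higher and 21 lower, and without library C of wild type 71, 34 higher and 37 lower. At an unadjusted p under 0.05 there were 1030 genes (8.23%). Of the called genes 109 are annotated as protein coding.

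**Figure D1:**
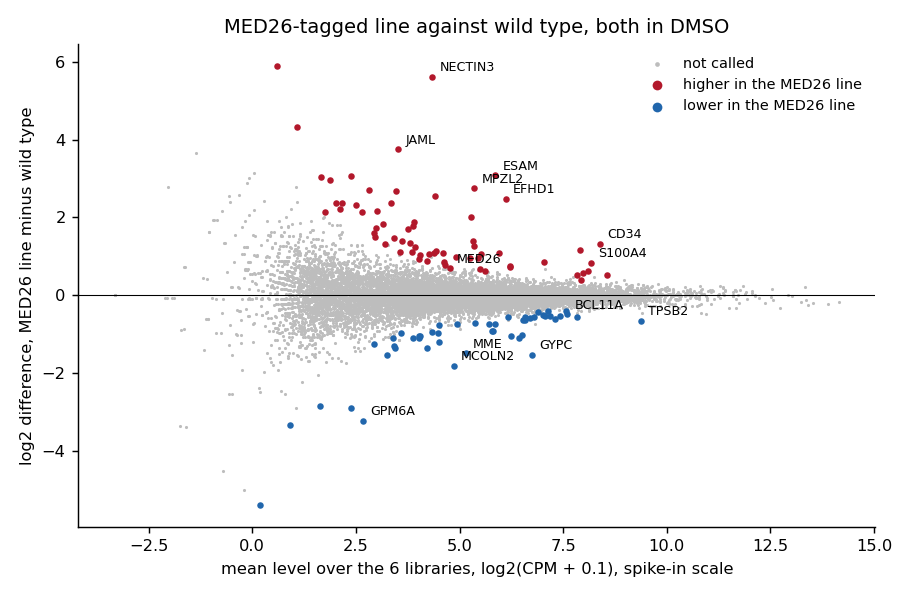
Each point is 1 of 12515 tested genes, with the mean level over the 6 DMSO libraries on the x axis (log2 of CPM plus 0.1, spike-in scale) and the log2 difference, MED26 line minus wild type, on the y axis. The 66 genes called higher are red and the 49 called lower are blue, with NECTIN3 at 5.62 and GYPC at -1.53, and the bulk of genes (grey) lies around 0.

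MED26 itself was the targeted gene and is described first (ENSG00000105085, chr19:16574907-16629062, minus strand, hg38). Its level was 40.0, 32.8 and 27.5 CPM in the tagged line and 24.3, 21.6 and 15.7 CPM in wild type. Every tagged library lay above every wild-type library, although library C of the first and library A of the second lay close together. The difference was 0.70 ± 0.18 (edgeR adjusted p = 0.0398). This call depended on single libraries: without library A of the tagged line the difference was 0.56 (edgeR adjusted p = 0.422), without library C of wild type it was 0.52 (edgeR adjusted p = 0.408), and over the 8 settings in which the call was lost the adjusted p ran from 0.0695 to 0.439. In the 8 other tagged lines in DMSO, mean MED26 levels ran from 18.8 (MED12 line) to 29.7 CPM (MED28 line), all below the 33.4 ± 6.25 CPM (SD, n = 3) of the MED26 line. The MED26 mRNA level is not read here as a check of the tag. Means of other tagged genes in their own lines in DMSO varied. MED14 was at 39.3 CPM in the MED14 line against 97.4 CPM in wild type. MED28 was at 91.4 against 214 CPM and MED10 at 43.2 against 71.0 CPM. CDK9, MED12 and MED31 were below wild type as well. MED6 was close to it (53.6 against 57.1 CPM) and MED1 was higher (408 against 347 CPM). Effects of a tag on its own mRNA were not tested. MED26 was 1 of 33 Mediator subunit genes called, with a list median of -0.03. Of the 8 other genes that carry a tag elsewhere in the series, none was called here: values ran from -0.27 ± 0.15 for MED12, a subunit of the kinase module, to 0.27 ± 0.42 for CDK9, the kinase of P-TEFb. Within 300 kb of the MED26 start 14 other genes were measured and 0 were called, in a comparison where 0.919% of all genes were. SMIM7, which lies just upstream on the same strand, had 148, 177 and 149 CPM in the tagged line and 146, 155 and 138 CPM in wild type (0.11 ± 0.13).

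Promoters of MED26 and of 3 of the genes that differed most clearly are shown so that the bases before a RefSeq start of each gene can be seen beside its values. Each sequence is the 250 bases before the RefSeq start on GRCh38.p14, on the gene's own strand, with the letters GGGCGG, or CCGCCC for the other strand, in capitals (the GC box, a motif bound by SP-family factors). They lie at chr19:16628205-16628454 (MED26, minus strand), chr3:111071566-111071815 (NECTIN3, plus strand), chr1:207911126-207911375 (CD34, minus strand) and chr2:126655908-126656157 (GYPC, plus strand). RefSeq starts differ from the GENCODE 29 starts used elsewhere here. The windows shown therefore lie inside the GENCODE spans of these genes, and for GYPC only in part.
MED26: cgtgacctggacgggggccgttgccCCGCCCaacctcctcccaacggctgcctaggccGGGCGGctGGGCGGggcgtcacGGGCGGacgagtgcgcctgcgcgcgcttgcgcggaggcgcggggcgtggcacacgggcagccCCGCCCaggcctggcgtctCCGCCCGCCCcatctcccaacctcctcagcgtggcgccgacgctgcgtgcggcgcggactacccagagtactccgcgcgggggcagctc
NECTIN3: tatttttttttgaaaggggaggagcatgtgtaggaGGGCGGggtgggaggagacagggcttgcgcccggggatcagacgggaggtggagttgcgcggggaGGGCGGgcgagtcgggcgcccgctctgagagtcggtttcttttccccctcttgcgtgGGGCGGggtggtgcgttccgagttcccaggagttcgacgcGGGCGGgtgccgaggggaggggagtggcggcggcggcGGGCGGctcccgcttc
CD34: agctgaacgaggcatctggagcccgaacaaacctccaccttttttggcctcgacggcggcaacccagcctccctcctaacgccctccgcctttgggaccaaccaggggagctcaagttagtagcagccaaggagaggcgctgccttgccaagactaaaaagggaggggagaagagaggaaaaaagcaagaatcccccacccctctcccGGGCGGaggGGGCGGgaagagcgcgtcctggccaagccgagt
GYPC: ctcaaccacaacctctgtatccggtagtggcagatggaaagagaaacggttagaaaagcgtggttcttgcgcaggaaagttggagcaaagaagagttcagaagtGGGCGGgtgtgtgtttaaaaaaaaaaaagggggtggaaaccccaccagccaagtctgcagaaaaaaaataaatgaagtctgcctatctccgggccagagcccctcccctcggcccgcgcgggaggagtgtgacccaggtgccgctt
The letters occurred 7 times for MED26, 5 times for NECTIN3, 2 times for CD34 and 1 time for GYPC, with overlapping matches counted. The promoter of JAML, a gene described below, was also looked at and is not printed. It held the letters 0 times, and the bases after its RefSeq start matched 0 GENCODE transcripts of the gene. RefSeq promoters were matched by symbol for 74 of the 115 called genes. GGGCGG was found on either strand in 27 of 42 promoters of genes called higher and 21 of 32 of genes called lower, against 42.5% of all 34943 promoters of this length. AGATAA, letters bound by GATA factors, was in 1 of 42 and 1 of 32 (9.19% of all). CCGGAA, a core bound by ETS factors, was in 6 of 42 and 1 of 32 (14.5% of all). The E-box CACGTG was in 6 of 42 and 2 of 32 (6.32% of all), and TATAAA was in 5 of 42 and 3 of 32 (10.8% of all). These are matches of letters on both strands, given as a description. Each called gene was given 1 promoter, while the set of all promoters also held those of genes not tested here. The shares are therefore not matched for expression or gene type, and nothing is read from their differences.

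The first rises given here are of genes for cell surface proteins, set together after their values were seen. Other surface proteins, such as GYPC and MME below, fell. NECTIN3, an immunoglobulin-like adhesion protein of adherens junctions (chr3:111070071-111275563), was at 42.4, 41.8 and 35.0 CPM in the MED26 line and at 0.837, 0.584 and 0.803 CPM in wild type. Each tagged library lay far above each wild-type library, and the difference was 5.62 ± 0.41 (edgeR adjusted p = 1.84e-16). ESAM, an adhesion molecule of endothelial cells that is also found on blood stem cells and platelets, was at 92.3, 99.2 and 119 CPM against 13.4, 12.8 and 10.4 CPM. It rose by 3.09 ± 0.21 (edgeR adjusted p = 5.48e-17). JAML, a junctional adhesion protein of leukocytes, was at 20.2, 19.4 and 23.8 CPM against 1.67, 1.75 and 1.21 CPM, a rise of 3.76 ± 0.45 (edgeR adjusted p = 1.92e-08). MPZL2, an epithelial adhesion protein related to myelin protein zero, was at 89.3, 71.1 and 53.2 CPM against 9.21, 11.1 and 11.2 CPM, and rose by 2.75 ± 0.25. Its relative MPZL3 rose by 1.88 ± 0.28. All 3 tagged libraries were above all 3 wild-type libraries for both. CD36, a scavenger and fatty acid receptor, rose by 2.14 ± 0.42 from a low level (9.38, 8.19 and 12.6 against 1.67, 2.92 and 2.41 CPM). Its mean in DMSO was 172 CPM in the MED31 line and 0.360 CPM in the MED14 line, with 10.1 CPM in the MED26 line.

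The progenitor marker CD34 was among the more abundant transcripts that rose. It was at 491, 483 and 467 CPM in the MED26 line and at 195, 203 and 178 CPM in wild type, so that the lines did not overlap. The difference was 1.32 ± 0.12 (edgeR adjusted p = 5.76e-12). CD34 was 1 of 21 tested stem and progenitor surface genes, of which 1 other was called: ITGA4, the alpha 4 integrin that binds VCAM1 and fibronectin, fell by 0.64 ± 0.16, a call lost in 5 settings (edgeR adjusted p up to 0.369). The list median was -0.0087, and with TMM 3 of its genes rose and 1 fell. S100A4, a calcium-binding protein tied to cell motility, was at 378, 365 and 366 CPM against 197, 194 and 229 CPM and rose by 0.84 ± 0.12 (edgeR adjusted p = 2.1e-06). It was the 1 called gene of 25 tested in the cell adhesion and cytoskeleton list, whose median was -0.08. Of 16 tested integrin genes, looked at after their values were seen, 2 rose (ITGA6 by 1.06 ± 0.24 and ITGA9 by 0.96 ± 0.20) and 2 fell (ITGAL and ITGA4, both by 0.64).

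Of the other large rises, EFHD1, a mitochondrial calcium-binding protein, went from 19.7, 23.3 and 20.1 CPM in wild type to 125, 115 and 111 CPM in the MED26 line (2.49 ± 0.32). AKAP12, a scaffold for protein kinase A, was at 56.8, 63.0 and 65.5 CPM against 15.5, 16.3 and 14.1 CPM (2.02 ± 0.19). The transcription factor EBF3, of the early B-cell factor family, was at 19.7, 18.5 and 18.2 CPM against 3.35, 2.92 and 2.41 CPM (2.68 ± 0.39). For these 3 genes the lines were separated by more than their spread. Rises were also called for MTUS1, a microtubule-binding protein (3.07 ± 0.56), and IFITM3, an interferon-induced membrane protein that blocks virus entry (2.71 ± 0.45). CEMIP2, a cell surface protein that breaks down hyaluronan, rose by 2.38 ± 0.38 and TMEM163, a zinc transporter, by 2.17 ± 0.34. CEMIP2 had a mean of 17.0 CPM in the MED26 line, below the 62.7 CPM of the MED12 line and 30.8 CPM of the MED31 line in DMSO. Wild type lay below all 8 other tagged lines for this gene. Against those lines CEMIP2 was not called in the MED26 line (0.52 ± 0.22, edgeR adjusted p = 0.26). CD93, a C-type lectin-like receptor of endothelial and progenitor cells, had 28 counts over the 3 tagged libraries and 1 over the wild-type libraries, a ratio of 26.2 with a 95% counting interval of 4.34 to 1073.

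**Figure D2:**
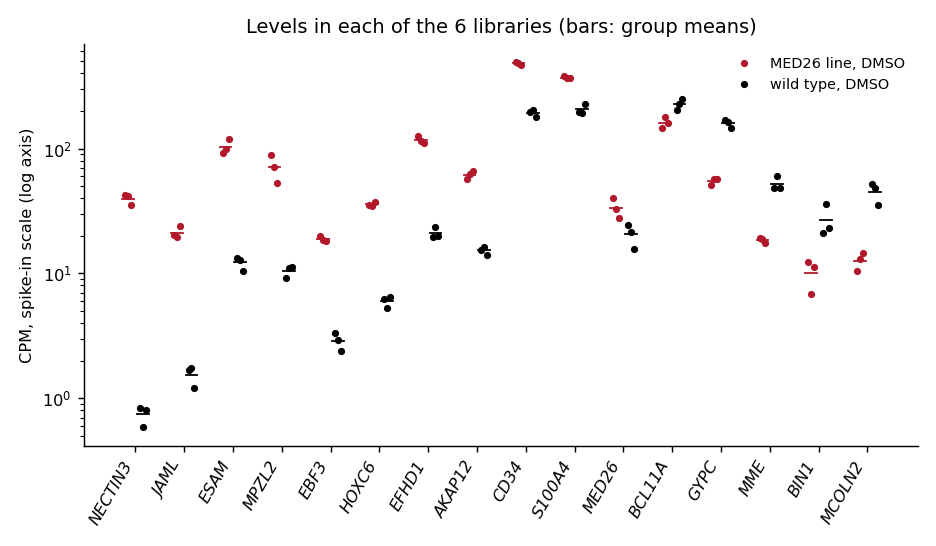
Points are the CPM of 16 genes on the spike-in scale (log axis) in each of the 3 libraries of the MED26 line (red) and of wild type (black), with bars at the group means. For every gene shown the 3 red points lie to 1 side of the 3 black points, with the smallest gaps for MED26 and BCL11A.

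Genes of the HOX clusters, which code for homeobox transcription factors of body axis and blood progenitors, were looked at together after their values had been seen. Of 18 tested HOX genes 4 rose and 0 fell, against 0.527% and 0.392% of all genes. HOXC6 was at 35.5, 34.9 and 37.6 CPM in the MED26 line and at 6.28, 5.25 and 6.43 CPM in wild type, a rise of 2.56 ± 0.28 (edgeR adjusted p = 5.34e-10). HOXB6 rose by 2.32 ± 0.46, HOXC9 by 1.47 ± 0.33 and HOXC8 by 0.97 ± 0.16. The neighbouring HOXC10 had a value of 0.84 ± 0.28 and was not called (edgeR adjusted p = 0.207), and HOXA9, HOXA10 and HOXD13 had values of 0.13 ± 0.16, -0.00091 ± 0.14 and 0.10 ± 0.16. The 3 called HOXC genes start within 18.5 kb of each other on chromosome 12. The transcripts of this cluster overlap, so that 3′ reads may be split between its members.

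Other called genes were neighbours as well. Among the 115, 11 pairs made of 13 genes had starts within 250 kb, a window chosen after the calls were known, and in all 11 both genes moved in the same direction. The pairs are not separate from each other, since groups of 3 genes on chromosomes 11 and 12 gave most of them. The share of such pairs among all tested genes was not computed, so nothing is read from this count. On chromosome 11 JAML, MPZL3 and MPZL2 lie in a row on the minus strand within 39.4 kb, and all 3 rose. A second group on chromosome 11 held ESAM, NRGN and AP000866.2. NRGN, a calmodulin-binding protein known from neurons and platelets, rose by 0.85 ± 0.17 (122, 203 and 180 against 111, 89.3 and 79.5 CPM). AP000866.2 begins 3.2 kb from the ESAM start on the opposite strand and overlaps it. It had 20 counts in the MED26 line and 0 in wild type, at least 6.25-fold higher with 3 counts over the group as the floor. Since the sources used here do not say that reads were counted by strand, its counts cannot be told apart from those of ESAM. CYTL1 and STK32B on chromosome 4 (rises of 1.77 ± 0.30 and 0.86 ± 0.22) and CD58 and IGSF3 on chromosome 1 (falls of 1.05 ± 0.14 and 1.36 ± 0.32) were the other pairs.

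Among the falls GYPC had the lowest adjusted p. It codes for glycophorin C, which ties the red cell membrane to its skeleton (chr2:126655933-126696670). Its level was 51.3, 56.9 and 56.5 CPM in the MED26 line against 168, 162 and 146 CPM in wild type, with no overlap. It fell by 1.53 ± 0.12 (edgeR adjusted p = 5.71e-15). GYPC was the 1 called gene of 19 tested in the globin and heme synthesis list, whose median was -0.10. MME, the surface peptidase CD10, was at 19.2, 19.0 and 17.5 CPM against 48.5, 60.1 and 48.2 CPM and fell by 1.49 ± 0.18 (edgeR adjusted p = 3.47e-08). MCOLN2, a cation channel of endosomes and lysosomes, was at 10.4, 12.9 and 14.5 CPM against 51.9, 47.9 and 35.4 CPM and fell by 1.81 ± 0.22. In both cases the highest tagged library was well below the lowest wild-type library.

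Several falls were of transcripts near the limit of counting. RNA5SP248, a 5S ribosomal pseudogene, had 0 counts over the MED26 libraries and 13 over the wild-type libraries, at least 4.62-fold lower with 3 counts over the group as the floor. NEFL, the neurofilament light chain, had 2 counts against 22, so that wild type was higher by a ratio of 11.7 with a 95% counting interval of 2.89 to 103. GPM6A, a neuronal membrane glycoprotein, was at 0, 2.16 and 1.12 CPM against 8.79, 16.9 and 8.44 CPM (-3.23 ± 0.56). Here wild type was the line apart: the 8 other tagged lines in DMSO had means of 1.37 to 3.42 CPM. Against those lines the MED26 line was not called for GPM6A (-0.66 ± 0.60, edgeR adjusted p = 0.75). RORB, a nuclear receptor, was at 0, 1.29 and 1.86 CPM against 6.69, 13.4 and 7.23 CPM (-2.91 ± 0.63). PIEZO2, a mechanically gated channel, was at 0, 0.862 and 1.12 CPM against 5.02, 4.09 and 6.83 CPM (-2.85 ± 0.61). In GPM6A, RORB and PIEZO2 the 0 was in library A, and without it the calls of RORB and PIEZO2 were lost. BIN1, which bends membranes, fell by 1.37 ± 0.24, CABLES1, a partner of cyclin-dependent kinases, by 1.21 ± 0.24, and PECAM1, an adhesion molecule of platelets and endothelium, by 1.11 ± 0.27. The PECAM1 call was lost in 5 settings (edgeR adjusted p up to 0.4105). ELOVL2, an elongase of polyunsaturated fatty acids, fell by 1.30 ± 0.33, the protease ADAMTS15 by 1.55 ± 0.38 and the noncoding transcript AC244502.1 by 1.1 ± 0.13. The call of ELOVL2 was lost in 6 settings (edgeR adjusted p up to 0.246) and that of ADAMTS15 in 5 (up to 0.279). TPSB2, a mast cell tryptase, was at 501, 476 and 570 CPM against 828, 885 and 728 CPM (-0.66 ± 0.12), and reads of this gene may be split with its near copy TPSAB1.

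Among genes of blood cell identity and signalling, few were called. Of 30 hematopoietic transcription factor genes 0 rose and 1 fell on the spike-in scale, and 2 rose and 1 fell with TMM. The fall was that of BCL11A, which represses fetal globin and acts in lymphoid cells. It was at 146, 178 and 160 CPM against 202, 227 and 249 CPM (-0.48 ± 0.12, edgeR adjusted p = 0.0277), a call lost in 5 settings (adjusted p up to 0.278). MYB, a factor of progenitors, had 609, 659 and 654 CPM against 799, 811 and 727 CPM, a value of -0.28 ± 0.11 that did not pass the test (edgeR adjusted p = 0.338). GATA2, another progenitor factor, was at 116, 116 and 101 against 72.8, 102 and 75.9 CPM. Its value was 0.42 ± 0.15 on the spike-in scale (edgeR adjusted p = 0.271) and 0.45 ± 0.11 with TMM, where it was called (edgeR adjusted p = 0.0192). The other rise with TMM was CEBPA, a factor of granulocyte development, chosen after its value was seen (0.36 ± 0.097 with TMM, edgeR adjusted p = 0.0429). MYC, the growth regulator, had a value of -0.14 ± 0.27. Of 22 genes of the BCR-ABL and STAT5 list 1 fell on the spike-in scale and 0 with TMM. This was STAT5A, with a value of -0.39 ± 0.11 (edgeR adjusted p = 0.0458) whose call was lost in 11 settings, with an adjusted p of 0.0556 under TMM and up to 0.459 in the others. The interferon list held 1 fall among 29 genes, that of BST2 (tetherin), by 0.54 ± 0.12, and 0 rises. Its median was 0.017, with 15 of the 29 above 0. The interferon-induced IFITM3, which rose by 2.71 ± 0.45, is not on this list. The BST2 call was lost without library A of the MED26 line (edgeR adjusted p = 0.237).

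Of the lists that show what cells were present, the erythroid list of globin and heme synthesis genes had 19 of 29 genes in the table, with sums of 1131 to 1169 CPM in the MED26 libraries and 1217 to 1398 CPM in wild type. These sums include GYPC, with a mean of 54.9 CPM in the MED26 line against 159 CPM in wild type. Of 19 megakaryocyte and platelet genes 4 were in the table, and 1 rose: ANGPT1, a ligand of the TIE2 receptor, by 0.53 ± 0.12, a call lost in 2 settings (edgeR adjusted p up to 0.148). Its list summed to 535 to 603 CPM in the MED26 libraries and 379 to 473 CPM in wild type, with most of it from ANGPT1. Of 26 granulocyte and monocyte genes 11 were tested and 0 called (1 rose with TMM), with sums of 407 to 452 against 330 to 395 CPM. Of 10 lymphoid genes tested 1 rose, RAG2 of the antigen receptor recombinase, from 0, 1.75 and 0.402 to 3.46, 7.76 and 4.84 CPM (3.04 ± 0.71). ELANE, CD14, PF4, HBB and CD2 were not among the genes of the count table. Of the 27 progenitor genes 21 were in the table. Their sums were 3916 to 3961 CPM against 3420 to 3939 CPM. The sums include CD34, with a mean of 480 against 192 CPM, while the list median was -0.0087. The part of any of these cell types in the differences was not tested, and in RNA from whole wells fewer cells of a type and less RNA per cell cannot be told apart.

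Housekeeping programmes showed no call in either direction. There were 0 of 31 for MYC and ribosome biogenesis genes (median -0.11), 0 of 77 for cytosolic ribosomal proteins (0.01), and 0 of 40 for nuclear-encoded respiratory chain genes (0.07). Of these, 6 of the 31, 43 of the 77 and 29 of the 40 had values above 0. Sums of the first list overlapped, at 13089 to 14745 CPM in the MED26 libraries and 14098 to 16441 CPM in wild type. Calls were also 0 of 36 for DNA replication and S phase, 0 of 32 for mitosis, 0 of 31 for the proteasome, 0 of 19 for P-TEFb and super elongation complex genes and 0 of 12 for the degrader machinery. With 0.919% of all genes called, lists of this size would hold few calls at the general rate. All 13 tested replication-dependent histone genes had values below 0 (median -0.38, 0 called), where 5755 of all 12515 tested genes were above 0. The sum of these histone genes ran from 1929 to 2883 CPM in the MED26 libraries and from 2970 to 3035 CPM in wild type. The most abundant of them, HIST1H4C, was at 1436, 2253 and 2179 CPM in the MED26 line and 2262, 2139 and 2493 CPM in wild type, so that library A was the lowest and the lines overlapped. The 15 mitochondrially encoded genes had a median of -0.13 and 0 calls. All entries of the mitochondrial chromosome, more than these 15, made up 3.80, 4.01 and 4.0% of endogenous counts in the MED26 line and 4.69, 4.30 and 3.96% in wild type.

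In a near-haploid line a gained or lost chromosome would move its genes together, so differences were also summarised by chromosome. Nuclear chromosome medians ran from -0.086 (chromosome 19, which holds MED26) to 0.0076 (chromosome 15). Every one was within 0.1 of 0, on a scale where a doubling of RNA is a distance of 1. Gains or losses of chromosomes, of their parts or in some of the cells were not tested. The genes of chromosome 11, with 12 rises and 3 falls among 734 tested (2.04% called), had a median of 0.0012. Called shares were higher on chromosomes 18 (2.31%) and 8 (2.13%), against 0.919% of all tested genes. Chromosomes 21, 22 and X had 0 called genes among 115, 309 and 434 tested. Sets of these sizes would hold few calls at the general rate, so nothing is read from these counts.

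**Figure D3:**
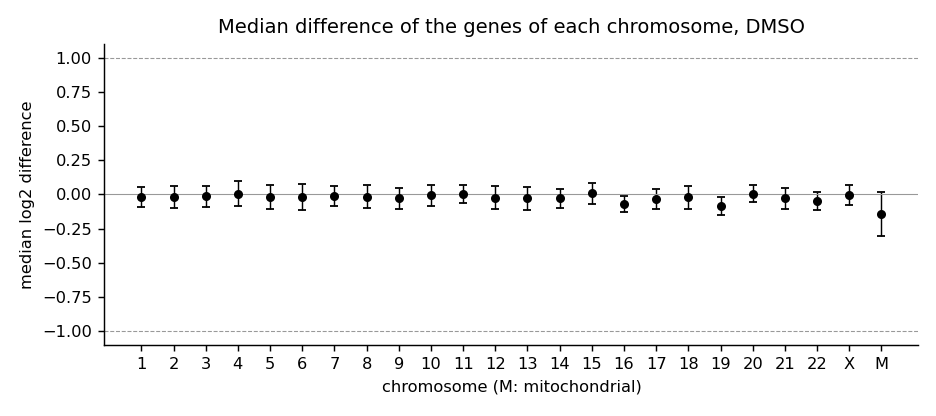
Points are the median log2 difference, MED26 line minus wild type, of the tested genes of each chromosome (M, mitochondrial), with bars of 1 SD of the median between replicates. Dashed lines at 1 and -1 mark a doubling and a halving, and all chromosomes lie near 0, with the mitochondrial one lowest at -0.14.

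The same pair of lines was also measured with 500 nM dTAG7 for 6 h, in 6 other libraries that share none with the DMSO comparison. These hold the effect of degrading the tagged protein as well as the difference between the lines. There 2426 genes were called (19.4%), 112 higher (0.895%) and 2314 lower (18.5%), and the median gene was at -0.26. With TMM scaling, which removes that shift, 699 were called (5.39%), 307 higher (2.37%) and 392 lower (3.02%). Of the 66 genes called higher in DMSO, 37 were called higher with dTAG7 (56.1% of the 66 and 33.0% of the 112), and with TMM 51 were (77.3% of the 66 and 16.6% of the 307). Of the 49 called lower in DMSO, 44 were called lower with dTAG7 (89.8% of the 49 and 1.90% of the 2314), and with TMM 38 were (77.6% of the 49 and 9.69% of the 392). Signs were shared by 60 of the 66 and 48 of the 49 on the spike-in scale, and by 62 and 45 with TMM. Among all tested genes 18.9% were above 0 with dTAG7 on the spike-in scale and 49.5% with TMM. NECTIN3 was at 24.4, 31.8 and 25.1 CPM in the MED26 line and 0.759, 0.392 and 2.38 CPM in wild type with dTAG7 (4.56 ± 0.39). CD34 was at 375, 425 and 385 against 199.7, 198 and 203 CPM (0.98 ± 0.12), HOXC6 at 45.4, 46.4 and 38.6 against 5.70, 7.84 and 10.5 CPM (2.47 ± 0.25), and GYPC at 49.8, 52.3 and 53.2 against 158, 159.5 and 168 CPM (-1.64 ± 0.12). These 4 genes kept the lines apart without overlap under the degrader. MED26 mRNA was at 30.5, 30.3 and 31.2 against 21.6, 21.2 and 29.1 CPM, a value of 0.37 ± 0.18 that was not called (edgeR adjusted p = 0.14). With TMM scaling it was 0.62 ± 0.17 and called (edgeR adjusted p = 0.013). The adapter SLA was the 1 gene called in opposite directions: it rose by 0.77 ± 0.20 in DMSO and was lower by 1.06 ± 0.22 with dTAG7.

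**Figure D4:**
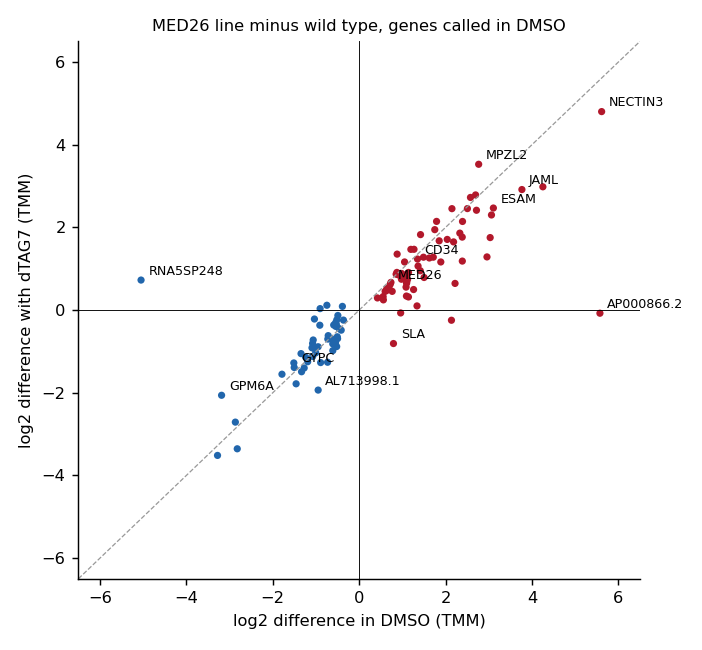
Each point is 1 of the 115 genes called in DMSO, with the log2 difference between the lines in DMSO on the x axis and with dTAG7 on the y axis, both under TMM scaling, and a dashed line of equality. Most points lie in the lower left or upper right quadrant, with SLA, RNA5SP248 and AP000866.2 off the line.

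The MED26 line was last set beside the 8 other tagged lines in DMSO (CDK9, MED1, MED6, MED10, MED12, MED14, MED28 and MED31, 24 libraries), which carry a tag on another gene. This comparison uses the MED26_DMSO libraries again, so its values are given side by side and no overlap with the calls above is counted. Against the mean of the 8 lines 376 genes were called (3.0%), 185 higher (1.48%) and 191 lower (1.53%). The split was 312 higher (2.4%) and 181 lower (1.4%) with TMM scaling, and without library A of the MED26 line 180 genes were called. NECTIN3 was 4.33 ± 0.20 above the 8 lines, but its level of 39.7 CPM was matched by 39.6 CPM in the CDK9 line, with 0.433 to 5.15 CPM in the other 7. JAML was 3.94 ± 0.27 above them, and at 21.1 CPM was higher than in any of the 8 (0.303 to 3.12 CPM). MPZL2 was 2.98 ± 0.16 above, at 71.2 CPM against 2.38 to 18.8 CPM.

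For other genes the 8 lines themselves were spread widely. ESAM ran from 4.22 CPM in the CDK9 line to 272 CPM in the MED12 line, with 103 CPM in the MED26 line and 12.2 CPM in wild type. AKAP12 ran from 8.49 to 254 CPM, with 61.7 CPM in the MED26 line and 15.3 CPM in wild type, and HOXC6 from 2.56 to 48.6 CPM, with 36.0 and 5.99 CPM. CD34 reached 464 CPM in the MED12 line and was down to 64.2 CPM in the CDK9 line, so that the 480 ± 12.2 CPM (SD, n = 3) of the MED26 line and the top of that range did not lie far apart. GYPC was at 40.4 CPM in the MED14 line and 53.5 CPM in the MED12 line, both below the 54.9 CPM of the MED26 line, and at 163 CPM in the MED6 line, near the 159 CPM of wild type. MCOLN2, at 12.6 CPM in the MED26 line, was below all 8 lines (29 to 61.8 CPM). As a description over the genes called against wild type, 35 of the 66 higher and 25 of the 49 lower had both the MED26 line and wild type within the range of the 8 other lines, against 82.2% of all tested genes. The MED26 line lay above all 8 in 25 of the 66 and below all 8 in 23 of the 49, against 3.84% and 7.99% of all tested genes. Wild type lay below all 8 in 6 of the 66 and above all 8 in 3 of the 49, against 4.72% and 3.3%. The genes were called for a difference that uses these libraries, so nothing is read from these counts. For 104 called genes the mean over the 6 libraries was at least 5 CPM. The highest of the 8 lines was a median of 3.38 times the lowest for these, against 1.52 times over all 10569 such genes. Called genes could pass that limit through the MED26 line or wild type alone, while some of the 8 lines were near 0. NECTIN3 averaged 20.2 CPM over the 6 libraries, with 0.433 CPM in its lowest line. These ratios are therefore not a like comparison, and nothing is read from them.

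**Figure D5:**
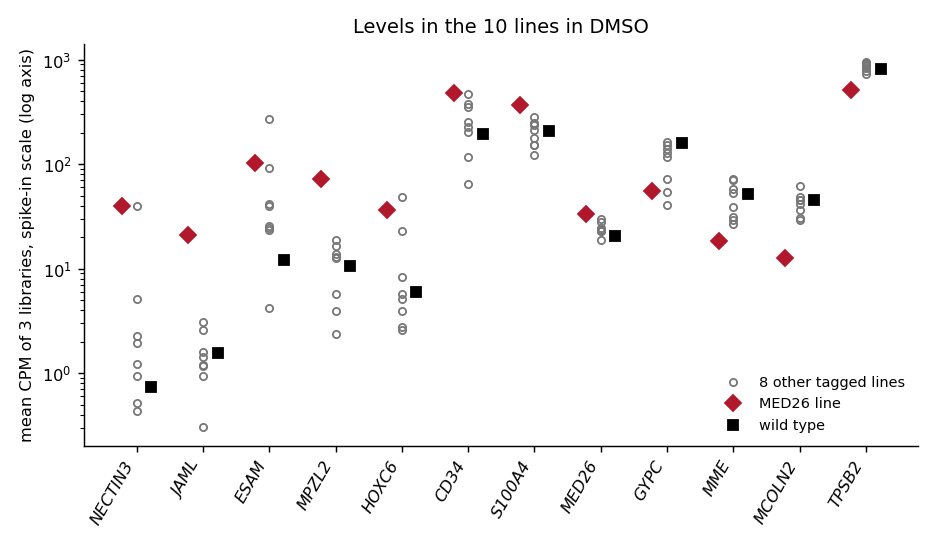
Mean CPM of 3 libraries (log axis, spike-in scale) for 12 genes in the MED26 line (red diamonds), wild type (black squares) and the 8 other tagged lines (open circles), all in DMSO. JAML and MPZL2 in the MED26 line lie above every other line and MCOLN2 and TPSB2 below, while ESAM and HOXC6 lie inside the range of the 8 lines.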

How the data were processed

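Polyadenylated RNA of KBM7 cells was measured by QuantSeq from 350 ng of RNA and 13 PCR cycles, per the labels' protocols. The main table holds raw read counts deposited by the authors. The submitters' processing notes list the genome build hg38, the aligner STAR (2.5.2b), the counter HTSeq (0.6.0) and bedtools (2.26.0); how they were run, and whether strand was used, is not given in the sources used here. The authors also deposited loess-normalized signal, per the file headers, used here for 1 alternative. The count table has 13375 entries: 13331 genes, 37 ERCC and 7 SIRV. No gene has under 70 counts in all, so weak genes may have been removed before deposit. GENCODE 29 supplied names and positions (34 genes unnamed).

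Library sizes followed the spike-in totals. The test was edgeR's quasi-likelihood F test (version 4.0.16, R 4.3.3) in a model of 22 groups and 66 libraries with 44 residual degrees of freedom, after filterByExpr. Genes were called at a Benjamini-Hochberg adjusted p under 0.05. Each SE was derived as the log2 difference over the root of F. The scripts were tested on simulated data. Alternatives were 2 other scalings (TMM, median-of-ratios), 2 other filters, fits on 6 or 30 libraries, a replicate block, DESeq2 1.42.0, limma 3.58.1 on log2 of loess values plus 1, and leaving out each library.

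Named genes were the 15 largest rises and falls that were called under both scalings, did not overlap and averaged 5 CPM or more; every tagged gene; HEXIM1, GATA1, GATA2, MYB and MYC; up to 2 called members per direction of each of 27 gene lists; genes within 300 kb of MED26; and the 5 largest each way called in all 3 comparisons. Others (CEBPA, NEFL, NRGN, CYTL1, STK32B, CD58, RAG2, TPSB2, SLA, AL713998.1, AP000866.2, RNA5SP248, HIST1H4C, most HOX and integrin genes) were chosen after their values were seen. The comparison, the lists and the tests were chosen with earlier results of these data known.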

Additional observations from a re-analysis of the deposited data

Results flagged for a closer look

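For 6 genes the difference between the lines was not the same with dTAG7 as in DMSO, by an edgeR test of the change in that difference (Benjamini-Hochberg adjusted p under 0.05, as for 170 of the 12515 genes tested). Only genes named above or called in DMSO were looked at. HEXIM1, an inhibitor of P-TEFb, went from -0.22 in DMSO to 1.37 with dTAG7, a change of 1.59 ± 0.24 (edgeR adjusted p = 3.55e-05). SMIM7, which lies just upstream of MED26, went from 0.11 to -1.15, a change of -1.26 ± 0.18 (edgeR adjusted p = 1.86e-05). SLA changed by -1.84 ± 0.30 (edgeR adjusted p = 7.69e-05), and its level in the MED26 line was 35.5, 26.7 and 32.4 CPM in DMSO against 9.81, 8.41 and 12.2 CPM with dTAG7. AL713998.1 changed by -1.23 ± 0.34 (edgeR adjusted p = 0.0498; 0.285 with TMM). AP000866.2, with 20 counts in the MED26 line and 0 in wild type in DMSO, had a fitted change of -6.22 (edgeR adjusted p = 0.0277; 0.0728 with TMM). RNA5SP248, with 0 counts in the MED26 line and 13 in wild type in DMSO, was at least 4.62-fold lower in the MED26 line there and had a fitted change of 5.89 (edgeR adjusted p = 0.0498; 0.0886 with TMM). Fitted values of the last pair depend on the prior count and are no measure of size. These are differences between treatments that include the degradation of the tagged protein, and their cause was not tested.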

How the results depend on the processing

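The 115 calls in DMSO became 71 with DESeq2 and 71 to 95 when 1 library was left out, and 158 with TMM, 159 with median-of-ratios, 113 and 114 with the other filters, 106 and 131 with fits on 6 and 30 libraries and 81 with limma on the loess values. The dTAG7 comparison gave 699 calls with TMM in place of 2426, and 1340 (without wild-type library A) to 2069 with 1 library left out, with 1433 without library A of the MED26 line. Against the 8 tagged lines the 376 calls became 180 to 256 with 1 MED26 library left out (219 without C), and 418 in a fit on 30 libraries that was chosen after seeing the data. With the replicate letter as a block 116, 2322 and 363 genes were called; letters did not pair the samples (correlations of same-letter deviations 0.029, 0.0044 and 0.082 in DMSO). Of 67 named genes 40 were called, 24 of them under every setting, and none of the 67 reversed. Calls lost without library A of the MED26 line were those of ABCA5, ADAMTS15, ATXN1, BCL11A, BST2, EFNB2, IGSF3, ITGA4, MED26, PIEZO2, RORB and STAT5A; those of ANGPT1, CD93, ELOVL2 and PECAM1 were lost in 2 to 6 other settings, and that of STAT5A in 11, with TMM among them. The difference in endogenous RNA per spike-in ran from -0.074 to 0.031 over the libraries left out. Depth limits transcripts of a few CPM, for which 1 library of 0 counts can decide a call. The cause of these shifts was not tested, beyond the fewer libraries in the leave-one-out fits.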
